A study of Mus musculus with 18 samples.

Results

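The members described here are the protein-coding genes of cytochrome P450 families 1 to 4, taken from 2 deposited gene tables by their symbol (Cyp, a family digit from 1 to 4, a subfamily letter and a number). There were 60 of them among the 22137 genes of the table with the diet groups and 63 among the 24778 genes of the table with the hairpin groups. Together these are 64 genes, of which 59 stood in both tables. Cyp2a22, Cyp2d11, Cyp4f37 and Cyp4f40 were listed only in the hairpin table, and Cyp3a16 only in the diet table. The members were grouped by subfamily: 3 in family 1, 4 in Cyp2a, 3 in Cyp2b, 13 in Cyp2c, 7 in Cyp2d, 3 in Cyp2e, 2f and 2g, 3 in Cyp2j, 3 others in family 2, 8 in Cyp3a, 6 in Cyp4a and 11 in Cyp4b, 4f and 4v.

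The study profiled bulk RNA of liver metastases in mice, grown from MC38, a mouse colon carcinoma line, after injection into the spleen. The diet table held 5 libraries of tumours from wild-type mice on a high-fat diet (HFD) and 5 from wild-type mice on a low-fat diet (LFD). The hairpin table held 4 libraries labelled shYap, a hairpin RNA against the transcriptional co-activator Yap, and 4 labelled shControl (shCon). The labels place both hairpin groups in wild-type mice on a high-fat diet. They do not tell whether each library is from its own mouse, so the p-values measure only the spread between these libraries, which may be technical. The labels give no age or sex of the mice, and a tumour sample holds cancer cells together with whatever host tissue was cut with it.

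Cytochromes P450 are haem enzymes that insert an oxygen atom into their substrate with electrons from a reductase. Families 1 to 3 oxidise drugs, toxins and steroids, and family 4 mostly hydroxylates fatty acids at the end of the chain. In the adult liver these enzymes sit in hepatocytes, many near the central vein, and receptors for foreign compounds and lipids (AhR, CAR, PXR and PPARα) switch on single subfamilies. Several mouse members are known to differ strongly between male and female liver.

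The values are estimated counts, shown as counts per 1000000 counts (CPM, with library sizes scaled by edgeR's TMM factors within a table), or as counts per 1000 counts of albumin (Alb), the most abundant secreted product of hepatocytes. Library totals were 17766207 to 18474191 in the diet table and 17207214 to 21309950 in the hairpin table. The tissue held hepatocyte RNA in every library, but in unequal amounts: the 12 hepatocyte genes examined, Alb among them, were lower in HFD in 12 of 12 cases, with sums of 359 to 3131 CPM in HFD and 9633 to 89001 CPM in LFD libraries. Alb itself had 1445, 1889, 168, 187 and 329.7 CPM in the HFD libraries, against 26028, 5492, 10568, 7829 and 51494 CPM in the LFD libraries. Values run in the order of the replicate numbers, 1 first, here and below. Yap1, the gene the hairpin was aimed at, had 71.6, 80.03, 81.4 and 70.5 CPM in the shYap libraries, against 78.1, 82.4, 73.8 and 77.4 CPM in the shCon libraries, and did not pass the test (log2 fold change -0.04 ± 0.11 SE, edgeR adjusted p = 0.937). The names shYap and shCon below are those of the labels. HFD replicates 1 and 2, and replicates 3 and 4, were closer to each other than any other HFD libraries (SD of the log2 CPM difference over genes 0.22 and 0.202, against 0.299 to 0.46 for the other pairs), though they differed by 6.18 and 5.16 times the variance of counting noise. The labels do not say whether they came from separate mice, and counts with each pair summed are given below. Levels in the 2 tables were normalised separately and are not compared by a test.

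Many members are recent copies of each other, which bears on how far single values can be trusted. On the mouse genome (GRCm38), 12 Cyp2c genes lay at chr19:39007019-40187333, 10 genes of Cyp2a, 2b and other family 2 groups at chr7:25802475-27133660, 7 Cyp3a genes at chr5:145436309-146113287, 7 Cyp2d genes at chr15:82370527-82794294, 8 Cyp4f genes at chr17:32452723-32947402, and the 6 Cyp4a genes with Cyp4b1 at chr4:115299046-115647723. Of the 50-base stretches of its exons, Cyp3a41a shared 98.6% exactly with transcripts of other genes (GENCODE M21, pseudogenes included), Cyp3a41b 93.5%, Cyp2c40 70.2%, Cyp2c69 54.8% and Cyp2c67 52.8%. These 5 were the members with at least 50% shared, while 9 members shared none with any other gene. The authors' estimation can divide reads of such stretches between copies, so Cyp3a41a and Cyp3a41b are best read together. Cyp2a4 and Cyp2a5 shared 38.0% and 38.6% of their own stretches, and Cyp4a12a and Cyp4a12b 48.9% and 49.4%.

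Near-identical copies need not move alike, and the first pair of sequences shows one such case. They are the 250 bases before the start that RefSeq gives each gene (GRCm38.p6, plus strand), at chr7:26306942-26307191 for Cyp2a4 and chr7:26835089-26835338 for Cyp2a5. GENCODE M21 starts the genes earlier, so that the last 23 and 34 bases lie inside them by its coordinates. Shifted by 1 base, 249 bases could be set against each other, of which 4 differed (98.4% identical). The capitals mark the differing bases, which are C19T, T131C, G161A and G205T from Cyp2a4 to Cyp2a5, with positions counted from 1 at the 5′ end of the Cyp2a4 stretch.
Cyp2a4: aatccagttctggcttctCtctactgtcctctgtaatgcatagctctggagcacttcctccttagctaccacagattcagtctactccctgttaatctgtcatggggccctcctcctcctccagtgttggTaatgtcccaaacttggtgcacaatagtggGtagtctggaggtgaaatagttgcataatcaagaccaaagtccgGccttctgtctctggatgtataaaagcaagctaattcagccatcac
Cyp2a5: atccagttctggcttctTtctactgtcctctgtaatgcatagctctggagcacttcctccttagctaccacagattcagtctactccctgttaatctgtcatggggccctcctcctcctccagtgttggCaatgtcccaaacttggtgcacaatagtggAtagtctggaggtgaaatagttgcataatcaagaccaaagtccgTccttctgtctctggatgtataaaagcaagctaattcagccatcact
The Cyp3a41 copies and Cyp3a11, all on the minus strand, are shown because in the diet table the copies had counts only in LFD libraries, while Cyp3a11, the most abundant Cyp3a member by CPM, had counts in every library. The windows, in the order Cyp3a41a, Cyp3a41b and Cyp3a11, are chr5:145720137-145720386, chr5:145584731-145584980 and chr5:145879855-145880104. By GENCODE M21, 110 bases of the Cyp3a11 window and 0 of the other two lie inside the gene. The capitals mark CAAAGTCCA, the letters by which HNF4-type sites are often recognised, searched on both strands. Cyp3a41a and Cyp3a41b differed at 1 base, T222G.
Cyp3a41a: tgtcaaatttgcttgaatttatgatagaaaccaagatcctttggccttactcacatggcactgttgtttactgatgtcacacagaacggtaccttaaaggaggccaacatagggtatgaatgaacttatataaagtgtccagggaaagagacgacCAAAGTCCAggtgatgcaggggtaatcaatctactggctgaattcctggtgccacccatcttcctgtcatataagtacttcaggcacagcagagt
Cyp3a41b: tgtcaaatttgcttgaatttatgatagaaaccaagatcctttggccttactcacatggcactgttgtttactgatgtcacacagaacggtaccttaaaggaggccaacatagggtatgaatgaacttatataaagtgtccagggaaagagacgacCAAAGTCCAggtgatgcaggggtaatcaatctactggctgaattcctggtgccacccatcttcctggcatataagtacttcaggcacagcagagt
Cyp3a11: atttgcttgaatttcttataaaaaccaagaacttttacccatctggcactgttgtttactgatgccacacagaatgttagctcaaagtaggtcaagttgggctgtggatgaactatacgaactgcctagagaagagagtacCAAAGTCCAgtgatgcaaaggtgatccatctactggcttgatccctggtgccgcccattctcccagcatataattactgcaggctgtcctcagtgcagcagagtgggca
RefSeq promoter sequences were given for 52 of the 64 members, and the 250 bases before RefSeq's start were searched. CAAAGTCCA stood in 9 of the 52 (17.3%), against 126 of all 32851 mouse windows (0.384%). The 9 were Cyp2c40, Cyp2c67, Cyp2c68, Cyp2c69, Cyp2c70, Cyp3a11, Cyp3a16, Cyp3a41a and Cyp3a41b, so all came from Cyp2c and Cyp3a, whose copies share descent. TTCNNNGAA, the letters of STAT5-type sites on both strands, stood in 2 of 52 member windows (3.85%), those of Cyp4b1 and Cyp4f13, and in 7.02% of all windows. Such matches describe the letters and are not evidence of binding.

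Set against LFD tumours, HFD tumours held less P450 RNA in sum, and in CPM every subfamily group other than the other family 2 and Cyp4a groups lay below LFD without overlap. All members together summed to 387, 462, 193, 211 and 194 CPM in the HFD libraries, against 13803, 1817, 4344, 2594 and 24753 CPM in the LFD libraries. The lowest LFD library was above the highest HFD library, and the LFD libraries themselves spanned over an order of magnitude. Of 60 members, 55 passed the filter on low counts, and 47 of these were lower and 0 higher at an adjusted p under 0.05 (edgeR quasi-likelihood test), where 21.6% of all 16340 genes tested were lower and 19.4% higher. With the close HFD pairs summed, 40 were lower and 0 higher. Among the 47, members with 2 or fewer counts summed over the HFD libraries had passed the filter only through LFD. Every HFD library was below every LFD library for 44 of the 55, against 14.8% of all genes. The 47 were 1 of 2 tested in family 1, 3 of 3 in Cyp2a, 3 of 3 in Cyp2b, 11 of 11 in Cyp2c, 5 of 5 in Cyp2d, 3 of 3 in Cyp2e, 2f and 2g, 3 of 3 in Cyp2j, 1 of 3 others in family 2, 8 of 8 in Cyp3a, 4 of 6 in Cyp4a and 5 of 8 in Cyp4b, 4f and 4v. The median log2 fold change was -5.55 over the 55, or -5.23 with the 6 tested members at 0 in HFD put at their bounds, and -0.00 over all genes. In bulk tissue, fewer hepatocytes and less P450 RNA per hepatocyte cannot be told apart on this scale.

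**Figure D1:**
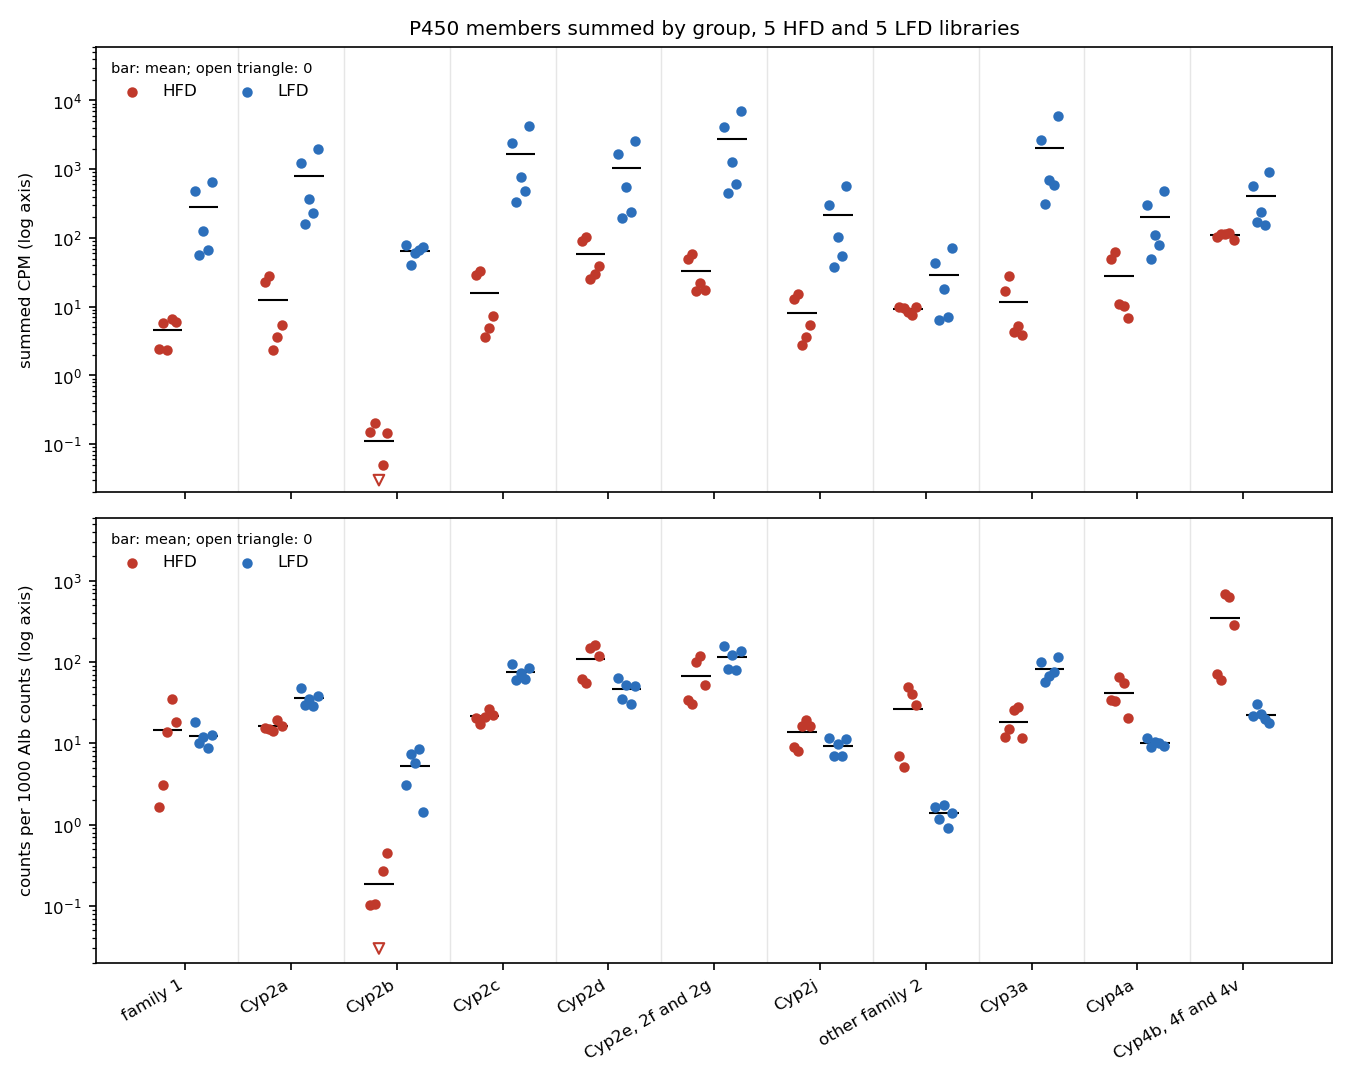
Summed CPM (upper row) and summed counts per 1000 Alb counts (lower row) of each member group, on log axes, with 1 point per library, HFD in red on the left and LFD in blue on the right; bars are group means and an open triangle marks a library at 0. In CPM the HFD points lie below the LFD points except in the other family 2 and Cyp4a groups, whereas relative to Alb only Cyp2a, Cyp2b, Cyp2c and Cyp3a are lower without overlap and the other family 2, Cyp4a and Cyp4b, 4f and 4v groups are higher without overlap.

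The members were therefore also set against Alb in each library, which asks whether they fell more or less than this hepatocyte product. Relative to Alb, 21 of the 55 members were lower, against 0.477% of all genes, and 15 were higher, against 95.7% of all genes. The other 19 members did not pass. Lower calls were thus more frequent, and higher calls less frequent, among members than among all genes. The median was -0.52 over the members and 5.05 over all genes. Every HFD library lay below every LFD library for 22 members (0.606% of all genes), and above for 13 (93.2% of all genes). The lower calls were 7 of 8 in Cyp3a, 6 of 11 in Cyp2c, 3 of 3 in Cyp2b, 2 of 3 in Cyp2a, 2 of 3 in Cyp2e, 2f and 2g, and 1 of 2 in family 1, with none in Cyp2d, Cyp2j, Cyp4a or Cyp4b, 4f and 4v. Among them, Cyp2a4, Cyp2b10, Cyp2b13, Cyp2c40, Cyp2c69, Cyp2g1, Cyp3a16, Cyp3a41a, Cyp3a41b and Cyp3a44 had 2 or fewer counts summed over the HFD libraries. These passed the filter on low counts only through LFD, where they were high, so their calls add no independent support to the counts above. Of the 11 hepatocyte genes other than Alb, 1 was lower relative to Alb (Hpd, an enzyme of tyrosine breakdown). Because nearly every gene was called on this scale, the adjusted p-values here are close to the unadjusted ones.

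**Figure D2:**
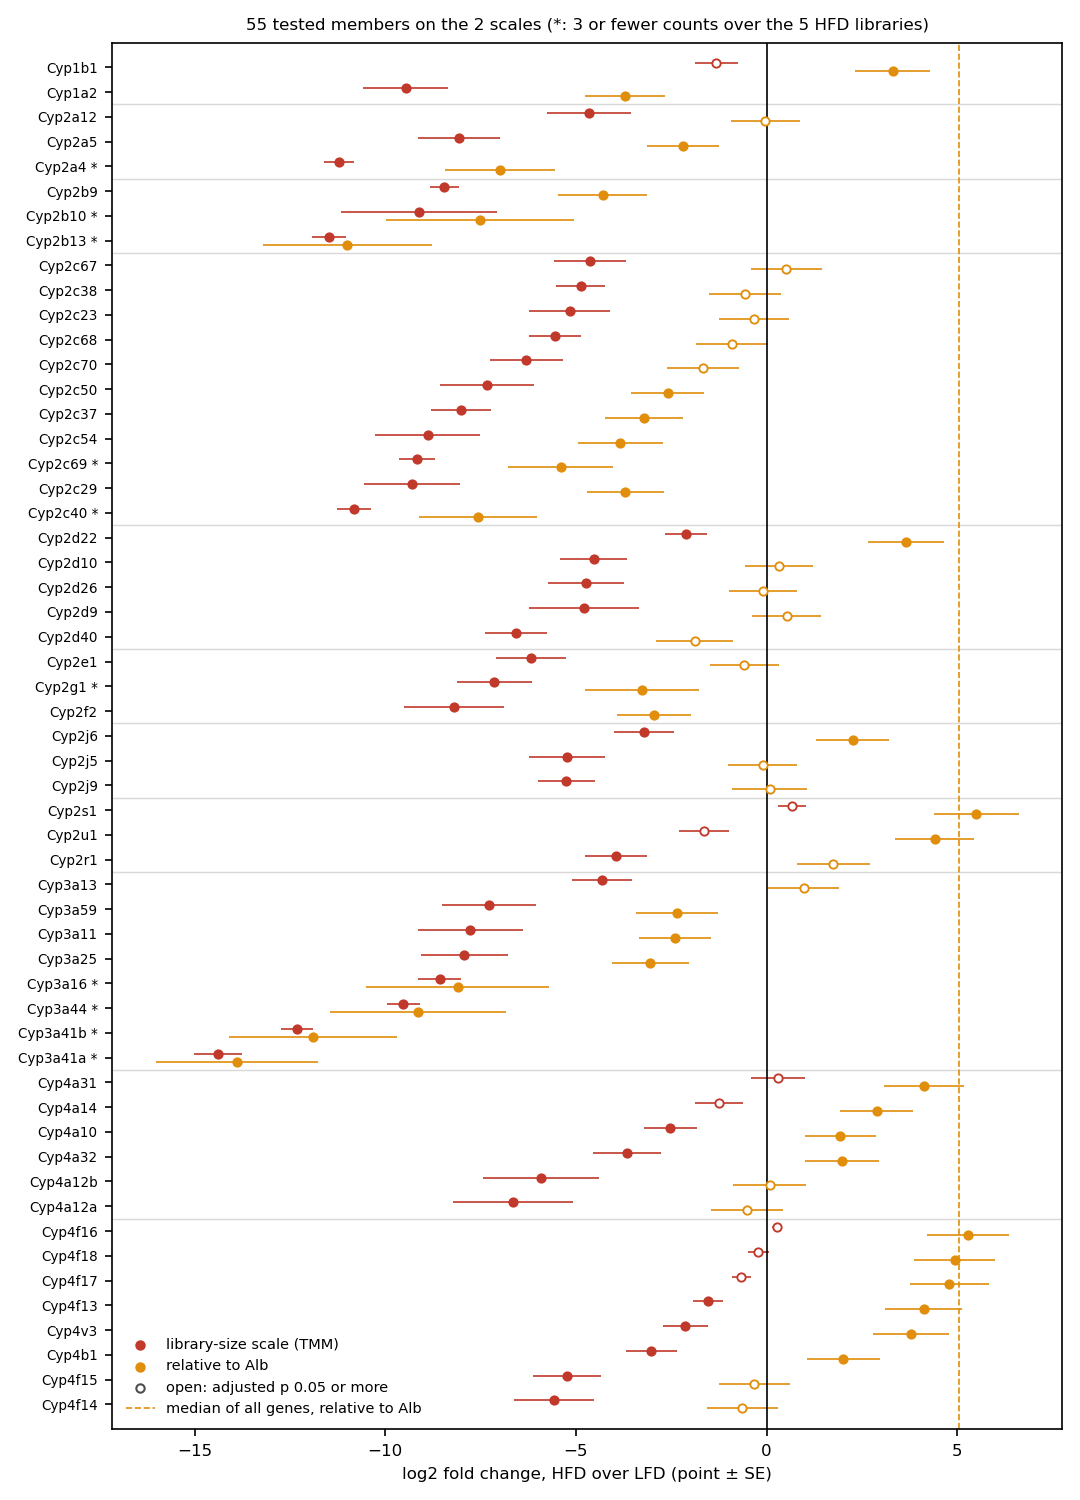
Log2 fold change of HFD against LFD with its SE for the 55 tested members, on the TMM scale (red) and relative to Alb (orange); open symbols have an adjusted p of 0.05 or more, the dashed line is the median of all genes relative to Alb (5.05), and asterisks mark members with at most 3 counts over the 5 HFD libraries, whose fitted change is not a bound. Members of Cyp2b, and of Cyp3a other than Cyp3a13, stay left of 0 on both scales, while Cyp4f16, Cyp4f17, Cyp4f18 and Cyp2s1 lie near the dashed line relative to Alb.

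Family 1 holds the targets of AhR, the receptor for dioxins and plant indoles. Cyp1a2, a central-vein enzyme that oxidises caffeine and aromatic amines, had 0.449, 0.606, 0.252, 0.352 and 0.196 CPM in the HFD libraries, against 478, 35.4, 121, 49.1 and 651 CPM in the LFD libraries. The groups lay far apart, and the fall was -9.47 ± 1.12 (SE, adjusted p = 0.00038) on the log2 TMM scale. Relative to Alb it had 0.31, 0.321, 1.5, 1.89 and 0.593 counts per 1000 Alb counts in the HFD libraries, against 18.4, 6.45, 11.5, 6.27 and 12.6 counts per 1000 Alb counts in the LFD libraries. The groups again did not overlap, and the log2 difference was -3.72 ± 1.05 (SE, adjusted p = 0.000424). Cyp1a1, which AhR induces from near nothing, had 0 counts in the HFD libraries and 0.318 ± 0.299 CPM in the LFD libraries (SD, n = 5). Against a floor of 3 counts in each HFD library (0.15 CPM), the LFD mean was at least 2.12-fold higher. Its LFD counts were only 9, 0, 4, 2 and 8, with replicates 2 and 4 below 3 counts as well. The groups thus overlapped, and the bound on the mean does not hold library by library. Cyp1b1, found mainly in stromal cells, had 1.94, 5.2, 2.07, 6.29 and 5.77 CPM in the HFD libraries, against 4.05, 20.3, 4.74, 18.7 and 4.96 CPM in the LFD libraries. The groups overlapped and its change of -1.32 ± 0.57 (SE, adjusted p = 0.0912) did not pass, while relative to Alb it was higher (3.31 ± 0.99), as were nearly all genes.

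Cyp2a holds an enzyme of coumarin and nicotine breakdown, Cyp2a5, next to its steroid-oxidising copy Cyp2a4. Cyp2a5 had 1.64, 3.33, 0.957, 1.66 and 0.978 CPM in the HFD libraries, against 711, 66.3, 164, 94.3 and 1272 CPM in the LFD libraries. Its log2 fold change was -8.07 ± 1.08 (SE, adjusted p = 0.000636). Relative to Alb it had 1.14, 1.76, 5.7, 8.89 and 2.97 counts per 1000 Alb counts in the HFD libraries, against 27.3, 12.1, 15.5, 12.04 and 24.7 counts per 1000 Alb counts in the LFD libraries, all HFD libraries below all LFD libraries (-2.20 ± 0.95 (SE, adjusted p = 0.0212)). Without HFD replicate 5 this adjusted p was 0.058. Cyp2a4 had 0, 0, 0.0504, 0.0503 and 0 CPM in the HFD libraries, against 80.1, 41.05, 61.9, 70.8 and 67.6 CPM in the LFD libraries. That is 2 counts over the HFD group, a ratio of LFD to HFD of 3159 (95% counting interval 874 to 26090, for counting error only), where Cyp2a5 kept 0.957 CPM or more in each HFD library. Within LFD the copies also differed: Cyp2a4 spanned 1.95-fold between its lowest and highest library and Cyp2a5 19.2-fold. Cyp2a12, a testosterone hydroxylase, had 20.9, 24.8, 1.36, 1.96 and 4.45 CPM in the HFD libraries, against 442, 54.5, 143, 63.4 and 648 CPM in the LFD libraries. It fell by 4.66 on the log2 TMM scale (SE 1.10, adjusted p = 0.00825) but was not called relative to Alb at -0.03 ± 0.90 (SE, adjusted p = 0.973), its ratios overlapping between the groups.

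Cyp2b10, the standard target of CAR, the receptor behind the phenobarbital response, had 0 CPM in all 5 HFD libraries, against 3.71, 0.726, 1.25, 0.681 and 13.02 CPM in the LFD libraries. With 0 counts in HFD it was at least 25.9-fold lower against the same floor. That bound is on the LFD mean of 3.88 CPM, which replicate 5 (13.02 CPM) raised, and it does not hold library by library. The other 2 are known from female liver: Cyp2b9 had 0.15, 0.202, 0, 0.0503 and 0.147 CPM in the HFD libraries, against 50.95, 26.9, 38.8, 44.7 and 42.97 CPM in the LFD libraries, and Cyp2b13 0 CPM in all 5 HFD libraries, against 25.1, 12.6, 20.7, 21.3 and 17.9 CPM in the LFD libraries. Cyp2b9 fell by 8.45 (SE 0.38, adjusted p = 1.68e-06) on the TMM scale and was -4.30 ± 1.16 (SE, adjusted p = 0.000221) relative to Alb. The subfamily as a whole had 0.103, 0.107, 0, 0.269 and 0.445 counts per 1000 Alb counts in the HFD libraries, against 3.07, 7.32, 5.75, 8.51 and 1.43 counts per 1000 Alb counts in the LFD libraries, with no overlap. Cyp2c55, the other CAR target listed, was too low to be tested and overlapped between the groups, at 0.0801 ± 0.103 CPM in HFD and 5.24 ± 7.53 CPM in LFD libraries (SD, n = 5 each).

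The Cyp2c enzymes epoxidise arachidonic acid and oxidise drugs and, in the mouse, bile acids. Cyp2c29, an arachidonic acid epoxygenase, had 1.59, 1.26, 0.151, 0.503 and 0.88 CPM in the HFD libraries, against 744, 68.7, 178, 87.7 and 1716 CPM in the LFD libraries. Relative to Alb it stood at -3.70 ± 1.01 (SE, adjusted p = 0.000289), so it fell by more than Alb. Cyp2c70, which makes the muricholic bile acids of mice, had 4.34, 5.66, 0.353, 0.755 and 1.22 CPM in the HFD libraries, against 327, 54.5, 116, 69.7 and 408 CPM in the LFD libraries. Its log2 fold change was -6.30 ± 0.96 on the TMM scale, and its ratios to Alb did not overlap, with 3.001, 2.99, 2.1, 4.04 and 3.71 counts per 1000 Alb counts in the HFD libraries, against 12.6, 9.92, 10.99, 8.9 and 7.93 counts per 1000 Alb counts in the LFD libraries. The test relative to Alb nevertheless missed the threshold (-1.67 ± 0.94 (SE, adjusted p = 0.0778)), while it passed with Apoa1 (adjusted p = 0.0439) or the summed hepatocyte list (0.0495) in place of Alb. Cyp2c50 had 3.1, 2.33, 2.1, 1.89 and 1.78 counts per 1000 Alb counts in the HFD libraries, against 19.3, 9.47, 12.9, 9.32 and 17.2 counts per 1000 Alb counts in the LFD libraries, with a change of -2.59 ± 0.96 (SE, adjusted p = 0.00757). The HFD ratios lay within 1.78 to 3.10 although Alb itself spread 11.2-fold over these libraries. Among the members with fewest HFD counts, Cyp2c40 had 1 count over the 5 HFD libraries (ratio 2982, 95% interval 535 to 117840) and Cyp2c69 had 2 (ratio 755, 209 to 6242). Of the 11 tested, Cyp2c23, Cyp2c38, Cyp2c67, Cyp2c68 and Cyp2c70 were not called relative to Alb, at -1.67 to 0.52.

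No Cyp2d member was called lower relative to Alb. Cyp2d26 had 21.5, 28.1, 1.81, 3.17 and 5.09 CPM in the HFD libraries, against 468, 75.7, 183, 109 and 750.5 CPM in the LFD libraries. Its ratios to Alb were 14.9, 14.9, 10.8, 16.97 and 15.4 counts per 1000 Alb counts in the HFD libraries, against 17.999, 13.8, 17.3, 13.9 and 14.6 counts per 1000 Alb counts in the LFD libraries, overlapping, with a change of -0.09 ± 0.89 (SE, adjusted p = 0.922). Cyp2d10 likewise fell by 4.54 on the TMM scale (SE 0.89) and was 0.32 ± 0.89 (SE, adjusted p = 0.722) relative to Alb. Cyp2d9, the male-biased testosterone 16α-hydroxylase, had 23.8, 27.3, 3.07, 3.17 and 5.92 CPM in the HFD libraries, against 600.2, 14.6, 134, 4.56 and 1006 CPM in the LFD libraries. LFD replicates 2 and 4 lay inside the HFD range, and the change was -4.80 ± 1.45 (SE, adjusted p = 0.0246). That call was lost without any 1 of HFD replicates 3, 4 and 5 or LFD replicate 5, at adjusted p of 0.052 to 0.058. It was also lost in limma voom (adjusted p = 0.166), and in edgeR with replicate number as a block (0.146) or with the close HFD pairs summed (0.0964). Relative to Alb the HFD libraries were close together and the LFD libraries far apart, with 16.5, 14.4, 18.4, 16.97 and 17.9 counts per 1000 Alb counts in the HFD libraries, against 23.1, 2.66, 12.7, 0.582 and 19.5 counts per 1000 Alb counts in the LFD libraries. Of the 5 tested, 1 was higher relative to Alb, Cyp2d22 at 3.66 (adjusted p = 0.000261), the member that kept 16.4 CPM or more in every library.

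Cyp2e1, the central-vein enzyme of ethanol and paracetamol oxidation, made up 12.9 ± 1.5% of all member counts scaled by exon length in HFD and 26 ± 2.37% in LFD libraries (SD, n = 5 each), where it was the most abundant member. It had 46.1, 55.5, 16.9, 21.7 and 16.5 CPM in the HFD libraries, against 3338, 398, 1112, 563 and 5868 CPM in the LFD libraries. Its change was -6.17 ± 0.92 (SE, adjusted p = 0.00105) on the TMM scale, and relative to Alb it was not called, at -0.58 ± 0.90 (SE, adjusted p = 0.524). Its ratios to Alb were 31.9, 29.4, 101, 116 and 50.1 counts per 1000 Alb counts in the HFD libraries, against 128, 72.5, 105, 71.9 and 114 counts per 1000 Alb counts in the LFD libraries. HFD replicates 3 and 4 lay inside the LFD range, and the other HFD libraries below it. Cyp2f2, the portal-side enzyme that activates naphthalene, had 3.04, 2.88, 0.151, 0.755 and 0.831 CPM in the HFD libraries, against 736, 51.98, 176, 54.1 and 1239.5 CPM in the LFD libraries. Unlike for Cyp2e1, its ratios to Alb were lower in every HFD library than in any LFD library, with 2.1, 1.52, 0.9001, 4.04 and 2.52 counts per 1000 Alb counts in the HFD libraries, against 28.3, 9.46, 16.7, 6.92 and 24.1 counts per 1000 Alb counts in the LFD libraries and a change of -2.95 ± 0.98 (SE, adjusted p = 0.00269). Cyp2g1, best known from olfactory tissue, had 1 count over the HFD libraries and 2.43 ± 1.995 CPM in LFD libraries (SD, n = 5). It was called lower relative to Alb (adjusted p = 0.0294), but not without HFD replicate 2 (0.102) or 5 (0.0547).

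Among the remaining family 2 members, Cyp2j5 and Cyp2j6, epoxygenases of arachidonic acid, fell by 5.23 (SE 0.997) and 3.21 (SE 0.78) on the log2 TMM scale, while relative to Alb they were at -0.10 ± 0.91 (SE, adjusted p = 0.916) and 2.26 ± 0.96 (SE, adjusted p = 0.0194). The call for Cyp2j6 was lost without HFD replicate 4 (adjusted p = 0.0505) or LFD replicate 4 (0.0509). Cyp2j9 was not called relative to Alb (0.08 ± 0.99 (SE, adjusted p = 0.935)). Cyp2r1, the vitamin D 25-hydroxylase, fell by 3.96 (SE 0.81, adjusted p = 0.0042). Cyp2s1, an enzyme of lining epithelia outside the liver, did not pass the test at 0.67 ± 0.38 (SE, adjusted p = 0.181), with 1.99, 2.17, 0.907, 1.01 and 3.81 CPM in the HFD libraries, against 1.37, 1.24, 1.31, 0.943 and 1.38 CPM in the LFD libraries. Cyp2u1, a fatty acid hydroxylase of broad expression, had 7.73, 6.67, 7.3, 6.14 and 5.67 CPM in the HFD libraries, against 31.9, 3.99, 13.2, 4.45 and 52.1 CPM in the LFD libraries. Its HFD libraries kept close to 6.70 ± 0.835 CPM (SD, n = 5), and LFD replicates 2 and 4 lay below them. It did not pass at -1.65 ± 0.66 (SE, adjusted p = 0.0714), and was called lower without LFD replicate 2 (adjusted p = 0.0248) or 4 (0.0301).

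Cyp3a carries the main drug oxidisers and the classic target of PXR, the receptor for drugs and bile acids. That target, Cyp3a11, had 9.62, 19.2, 2.37, 2.97 and 1.61 CPM in the HFD libraries, against 2048, 155, 417, 245 and 4945 CPM in the LFD libraries. The log2 fold change was -7.77 ± 1.38 (SE, adjusted p = 0.00228). Against Alb it had 6.66, 10.2, 14.1, 15.9 and 4.89 counts per 1000 Alb counts in the HFD libraries, against 78.7, 28.2, 39.5, 31.3 and 96.02 counts per 1000 Alb counts in the LFD libraries, every HFD library below every LFD library (-2.41 ± 0.95 (SE, adjusted p = 0.0115)). Cyp3a25 behaved alike, at -7.93 ± 1.15 on the TMM scale and -3.05 ± 1.01 (SE, adjusted p = 0.00266) relative to Alb. The 4 members with 0 counts in all HFD libraries were Cyp3a16, Cyp3a41a, Cyp3a41b and Cyp3a44. They had 2.60 ± 0.719, 146 ± 49.9, 34.7 ± 8.46 and 5.02 ± 1.09 CPM in LFD libraries (SD, n = 5). Against the floor of 3 counts in each library they were at least 17.3-, 976-, 231- and 33.5-fold lower in HFD, bounds that are not to be compared with the ratios from summed counts given for members with 1 or 2 HFD counts. Cyp3a41a and Cyp3a41b are near-identical, so the division between them is uncertain. Cyp3a13, a form also found in gut, was the exception of the subfamily relative to Alb, at 0.97 ± 0.92 (SE, adjusted p = 0.299).

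**Figure D3:**
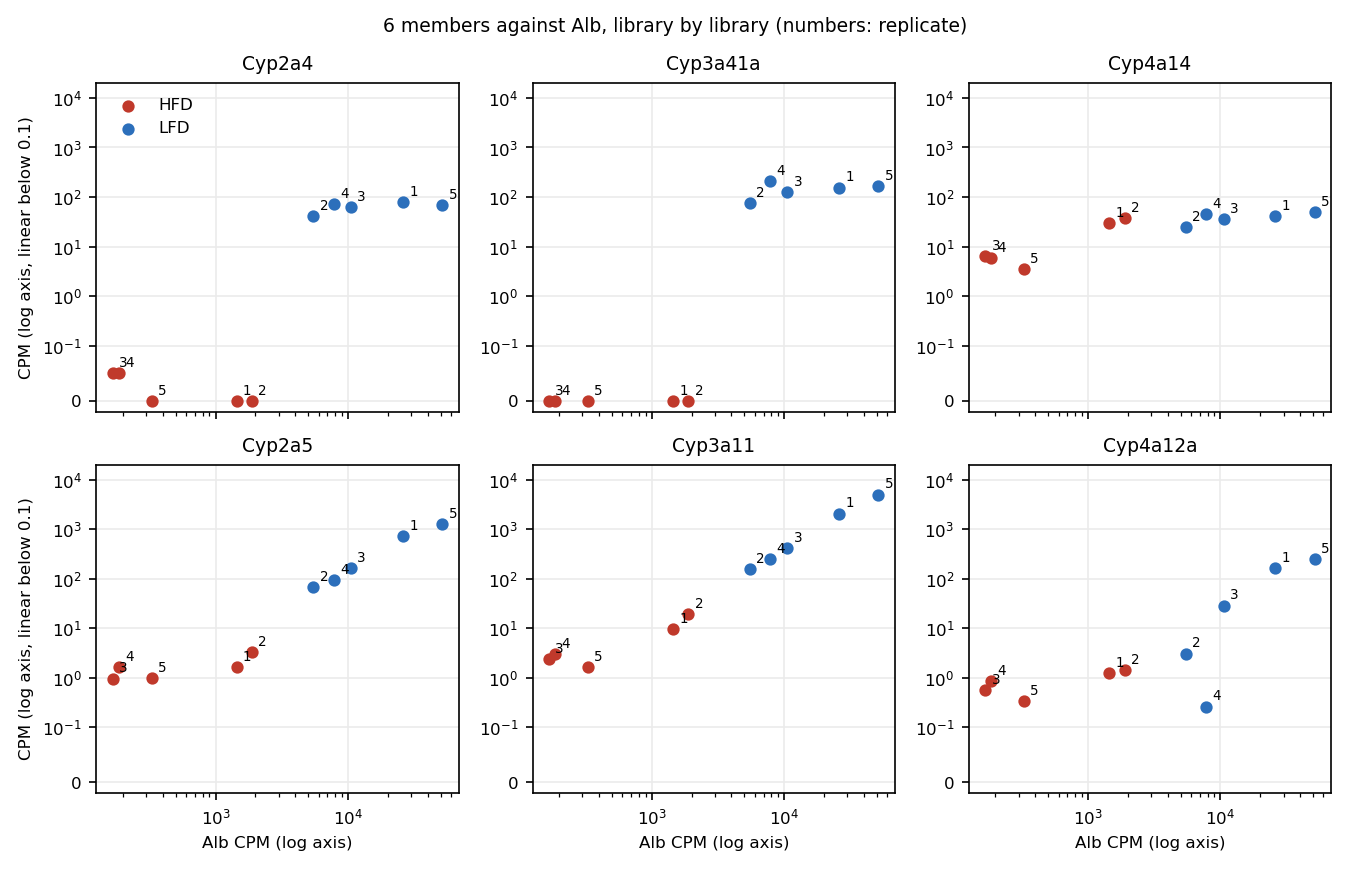
CPM of 6 members against CPM of Alb in each library of the diet table, on log axes that are linear below 0.1, with replicate numbers beside the points, HFD in red and LFD in blue. Cyp2a5, Cyp3a11 and Cyp4a12a (lower row) span more than the range of Alb within LFD, whereas Cyp2a4, Cyp3a41a and Cyp4a14 (upper row) span less than 3-fold across the 9.38-fold range of Alb in LFD.

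Cyp4a enzymes hydroxylate the ends of fatty acids, and Cyp4a10, Cyp4a14, Cyp4a31 and Cyp4a32 are targets of PPARα, the fatty acid receptor. Their median log2 fold change was -1.88, against -5.55 for all tested members. Cyp4a14 had 29.6, 37.7, 6.4, 5.89 and 3.47 CPM in the HFD libraries, against 41.7, 24.9, 35.96, 44.9 and 49.1 CPM in the LFD libraries. HFD replicates 1 and 2 lay inside the LFD range and the change of -1.24 ± 0.63 (SE, adjusted p = 0.139) did not pass, though it did without HFD replicate 2 (adjusted p = 0.046). Relative to Alb it had 20.5, 19.97, 38.1, 31.5 and 10.5 counts per 1000 Alb counts in the HFD libraries, against 1.6, 4.54, 3.4, 5.74 and 0.953 counts per 1000 Alb counts in the LFD libraries, with every HFD library above every LFD library. That difference of 2.89 ± 0.96 (SE, adjusted p = 0.00274) has to be read against the median of 5.05 for all genes. Cyp4a10 fell by 2.53 (SE 0.69, adjusted p = 0.016) and was 1.94 ± 0.94 (SE, adjusted p = 0.0407) relative to Alb. Cyp4a31 had 5.43, 6.51, 0.453, 0.553 and 1.12 CPM in the HFD libraries, against 3.64, 1.76, 2.02, 1.94 and 2.2 CPM in the LFD libraries. It did not pass at 0.29 ± 0.70 (SE, adjusted p = 0.767), a change whose sign turned without HFD replicate 1 (-0.09) or 2 (-0.28), and its ratios to Alb, 3.77, 3.44, 2.7, 2.96 and 3.41 counts per 1000 Alb counts in the HFD libraries, against 0.14, 0.322, 0.191, 0.245 and 0.043 counts per 1000 Alb counts in the LFD libraries, did not overlap and were close together in HFD. All 4 were higher relative to Alb, as were 95.7% of all genes but 0 of the 11 hepatocyte genes other than Alb and 0 of the tested Cyp2b, Cyp2c and Cyp3a members. This was not particular to the PPARα targets. Cyp1b1, Cyp2d22 and Cyp2j6 were higher as well, and every HFD ratio to Alb of Cyp4f13 and Cyp4v3 lay above every LFD ratio. The calls of Cyp4a10 and Cyp4a32 were fragile: leaving out single libraries gave adjusted p of up to 0.0909 for Cyp4a10 (without HFD replicate 3) and 0.197 for Cyp4a32 (without HFD replicate 4). The remaining 2 of the group, Cyp4a12a and Cyp4a12b, are male-biased. Cyp4a12a had 1.25, 1.41, 0.554, 0.855 and 0.342 CPM in the HFD libraries, against 162, 3.06, 28.4, 0.262 and 251 CPM in the LFD libraries, so that LFD replicate 4 lay below every HFD library (-6.64 ± 1.58 (SE, adjusted p = 0.00858) on the TMM scale, -0.52 ± 0.94 (SE, adjusted p = 0.591) relative to Alb). Its call on the TMM scale was lost in limma voom (-3.98, adjusted p = 0.314). In edgeR it was lost with replicate number as a block (adjusted p = 0.0948) and with the close HFD pairs summed (0.057).

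The Cyp4b, 4f and 4v group held 3 of the 8 tested members that did not pass on the TMM scale. Cyp4f18, a leukotriene B4 hydroxylase known from leukocytes, had 17.2, 16.9, 30.2, 31.7 and 18.3 CPM in the HFD libraries, against 24.996, 35.03, 34.3, 23.8 and 14.3 CPM in the LFD libraries. Cyp4f16 had 22.6, 22.3, 27.5, 25.1 and 23.1 CPM in the HFD libraries, against 20.3, 24.9, 19.8, 20.5 and 14.8 CPM in the LFD libraries. The groups overlapped for both, with -0.21 ± 0.27 (SE, adjusted p = 0.557) and 0.27 ± 0.13 (SE, adjusted p = 0.122). Cyp4f17 also did not pass (-0.66 ± 0.24 (SE, adjusted p = 0.0505)). Without LFD replicate 2, Cyp4f16 was called higher (adjusted p = 0.0345) and Cyp4f17 lower (0.0333), and without LFD replicate 4 Cyp4f17 was again lower (0.0194). Cyp4v3, the counterpart of a human fatty acid hydroxylase mutated in a retinal dystrophy, had 42.7, 50.2, 39.8, 41.3 and 35.2 CPM in the HFD libraries, against 257, 58.05, 87.6, 55.9 and 459.8 CPM in the LFD libraries. It was lower in HFD, at -2.13 ± 0.59 (SE, adjusted p = 0.0169) on the TMM scale, with HFD libraries close together and LFD replicates 2 and 4 just above them. By contrast Cyp4f14, which hydroxylates vitamin E and leukotriene B4, and Cyp4f15 fell by 5.57 (SE 1.04) and 5.25 (SE 0.89) and were not called relative to Alb, at -0.63 ± 0.93 (SE, adjusted p = 0.504) and -0.32 ± 0.93 (SE, adjusted p = 0.738).

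These unequal falls changed which enzymes made up the P450 RNA. Scaled by exon length, Cyp4b, 4f and 4v made up 40.8 ± 17.8% in HFD and 4.72 ± 1.86% in LFD libraries (SD, n = 5 each, here and in the next sentences). Cyp3a made up 2.45 ± 1.07% in HFD and 14.2 ± 3.01% in LFD libraries, and Cyp2c 5.75 ± 3.1% in HFD and 18.7 ± 0.656% in LFD libraries. Cyp2e, 2f and 2g made up 13.5 ± 1.77% in HFD and 30.6 ± 4.06% in LFD libraries. Cyp4a made up 8.91 ± 4.75% in HFD and 2.51 ± 0.339% in LFD libraries. None of these shares overlapped between the groups, while those of Cyp2d did, at 19.9 ± 6.68% in HFD and 13.1 ± 1.32% in LFD libraries. Cyp4f18 had the highest mean share in HFD, 14.4 ± 8.77%, through replicates 3, 4 and 5 (23.6%, 22.7% and 14.6%), whereas in replicates 1 and 2 (6.18% and 5.1%) it was below Cyp2e1 (14.2% and 14.4%). HFD replicates 3, 4 and 5, which had the least Alb, had the largest shares of Cyp4b, 4f and 4v, at 59.1%, 54.7% and 46.4%, against 22.9% and 21.1% in replicates 1 and 2.

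**Figure D4:**
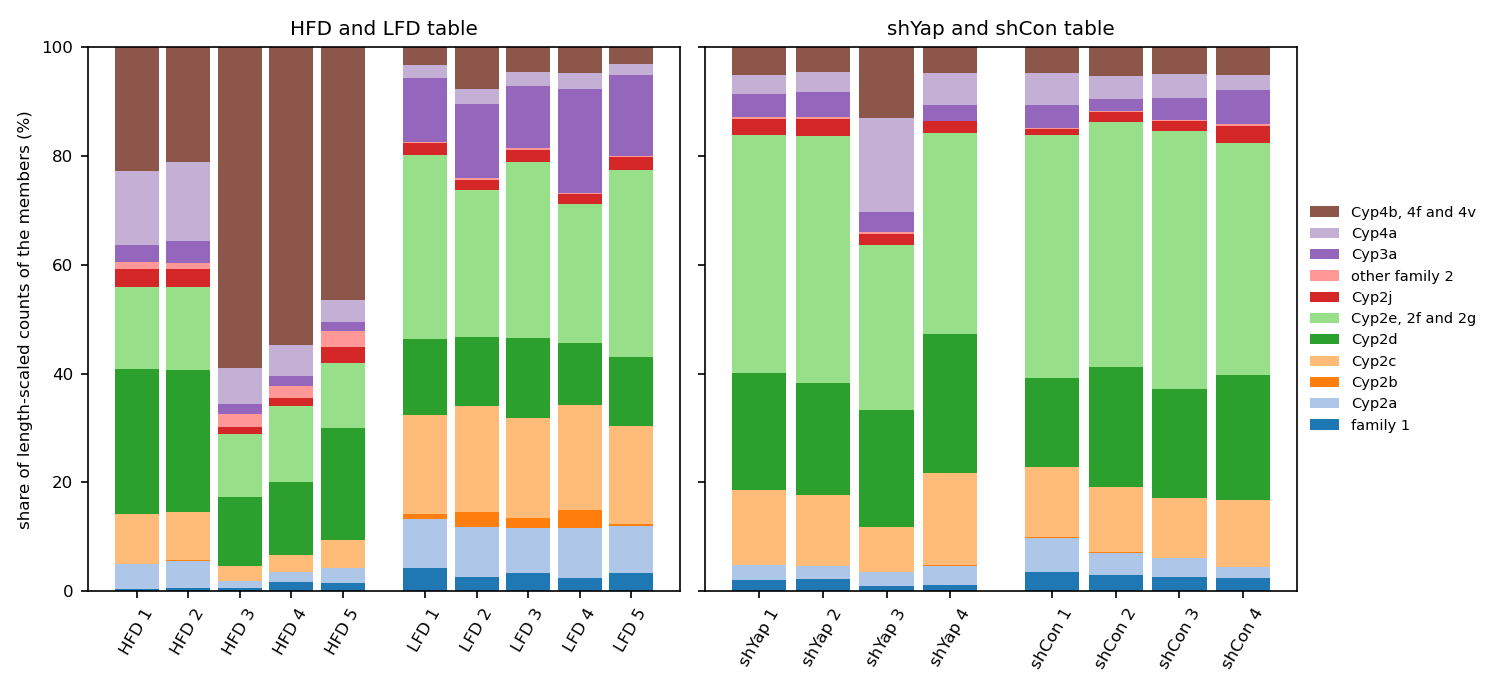
Share (percent) of each member group in the length-scaled counts of all members, 1 stacked bar per library, for HFD, LFD, shYap and shCon; the 2 tables were normalised separately. Cyp4b, 4f and 4v fill 21.1 to 59.1% of the HFD bars and 3.07 to 7.75% of the LFD bars, and Cyp2e, 2f and 2g is the largest share in each hairpin bar.

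The members known to be higher in female liver split from the rest within LFD. Without Cyp4a14, a PPARα target as well and set apart after its values were seen, the 10 in the diet table (Cyp2a4, Cyp2b9, Cyp2b13, Cyp2c39, Cyp2c40, Cyp2c69, Cyp3a16, Cyp3a41a, Cyp3a41b and Cyp3a44) summed to 0.349, 0.202, 0.0504, 0.101 and 0.196 CPM in the HFD libraries, against 407, 216, 330.1, 458 and 391.7 CPM in the LFD libraries. The LFD libraries spanned 2.12-fold while Alb spanned 9.38-fold. With Cyp4a14 included, the 11 members summed to 3.67 to 37.9 CPM in HFD and 241 to 503 CPM in LFD libraries, without overlap. Relative to Alb the sums of these 11 overlapped, at 11.1 to 38.4 counts per 1000 Alb counts in HFD and 8.56 to 64.2 in LFD libraries. The 3 male-biased members Cyp2d9, Cyp4a12a and Cyp4a12b, with Cyp2u1 set apart in the same way, summed to 25.6, 29.5, 3.98, 4.33 and 6.5 CPM in the HFD libraries, against 809, 18.3, 174, 4.92 and 1341 CPM in the LFD libraries. Their LFD span was 272-fold, or 149-fold with Cyp2u1 included. LFD replicates 2 and 4, the lowest in the male-biased sum, had 216 and 458 CPM of the female-biased sum without Cyp4a14. Over the 55 members with more than 3 counts in each LFD library, 15 spanned less than 3-fold, among them 10 of the 11 female-biased ones, and 26 spanned more than Alb. Cyp3a11 spanned 32.0-fold, Cyp2e1 14.7-fold, Cyp2d9 221-fold and Cyp4a12a 960-fold.

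RNA that marks the sex of cells moved with these members and with diet. Xist, made from the inactive X chromosome of females, had 0.0997, 0.0505, 0.151, 0.252 and 0.293 CPM in the HFD libraries, against 122, 72.9, 104, 135 and 118 CPM in the LFD libraries, a log2 change of -9.29 ± 0.32 in HFD against LFD. The 4 RNAs of the Y chromosome examined summed to 24.8, 32.8, 23.02, 30.5 and 23.1 CPM in the HFD libraries, against 83.2, 43.3, 50.3, 37.1 and 133 CPM in the LFD libraries, so both kinds stood in every LFD library. A pair of sex-biased liver genes outside the families was read for comparison. Cux2, a repressor known from female liver, had 1.2, 1.62, 1.41, 0.654 and 0.929 CPM in the HFD libraries, against 6.94, 4.98, 6.97, 5.97 and 5.53 CPM in the LFD libraries. Cyp17a1, a steroid hydroxylase, had 1.3, 0.455, 0.101, 0.0503 and 0 CPM in the HFD libraries, against 33.3, 19.3, 23.8, 27.1 and 28.8 CPM in the LFD libraries. Cux2 was lower by -2.38 ± 0.24 (adjusted p = 0.000163) and Cyp17a1 by -6.10 ± 0.72 (adjusted p = 0.000372). Xist did not overlap between the diet groups, so sex of the tissue and diet cannot be told apart for any member in HFD against LFD. For each female-biased member other than Cyp4a14, every HFD library lay below every LFD library in CPM. The part of sex in these differences was not tested.

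Genes that regulate or serve the enzymes are set against the 21.6% of all genes that were lower and the 19.4% that were higher. Of 16 receptors and regulators, 12 were lower in HFD and 0 higher, with a median of -3.03, among them the receptors Nr1i3 (CAR) at -3.91 ± 0.60 (adjusted p = 0.00122), Nr1i2 (PXR) at -3.35 ± 0.75 (adjusted p = 0.00645) and Ppara at -4.10 ± 1.07 (adjusted p = 0.0133), and the hepatocyte factor Hnf4a at -3.96 ± 0.89 (adjusted p = 0.00669). Ahr, its partner Arnt, its repressor Ahrr and the growth-hormone-regulated repressor Bcl6 did not pass, at -0.28, -0.13, -0.80 and -0.45. Of the 4 electron donors 1 was lower, a share near that of all genes: the cytochrome b5 gene Cyb5a at -2.40 ± 0.45 (adjusted p = 0.00287), while Por, the reductase that feeds every member, was at -0.60 ± 0.26 (adjusted p = 0.0919). Both haem enzymes were lower, Alas1, the first step, at -1.64 ± 0.43 (adjusted p = 0.0127) and Fech, the last, at -0.74 ± 0.25 (adjusted p = 0.0374). Of 8 cytochromes of sterol and bile acid metabolism, 7 were lower, with Cyp8b1 at -6.33 ± 1.14 (adjusted p = 0.00242) and Cyp7a1, the rate-limiting enzyme of bile acid synthesis, at -4.11 ± 0.96 (adjusted p = 0.00795); Cyp39a1 did not pass (-0.08).

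Markers of other cell types are read against the same 21.6% and 19.4% of all genes, and their part in these results was not tested. All 5 portal-side and all 4 central-vein hepatocyte genes were lower, with medians of -6.37 and -4.37. These counts partly repeat results given above. The portal-side list holds the member Cyp2f2, with Pck1 and Ass1 from the hepatocyte list, and the central-vein list holds the members Cyp2e1 and Cyp1a2. Of the Kupffer cell markers 3 of 4 were lower, of the sinusoidal endothelial markers 2 of 3, of the neutrophil markers 2 of 3, and of the macrophage markers 0 of 3. Of the fibroblast markers 2 of 3 were higher, with sums of 5554 to 7436 CPM in HFD and 2511 to 4906 CPM in LFD libraries. Of the genes listed as bile duct markers (Krt19, Krt7, Epcam and Sox9) 1 of 4 was higher (Sox9), near the share of all genes, with sums of 42.2 to 60.2 CPM in HFD and 22.6 to 33.9 CPM in LFD libraries. Whether their RNA came from bile duct or from carcinoma cells was not tested.

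In the hairpin table the question was whether tumours labelled shYap differ from shCon tumours on the same diet. No member was called: of 63 members 46 were tested and 0 were lower or higher at an adjusted p under 0.05 in edgeR, where 0.0% of the 16571 genes tested were called. At an unadjusted p under 0.05 there was 1 member (Cyp4a31), and 1804 of all genes. Without shCon replicate 4 the same test called 17 genes higher and 77 lower, with 0 members among them. limma voom called 0 genes, and DESeq2 called 122 genes higher and 286 lower, with 0 members among them. The members summed to 2980.1, 4661, 1078 and 4295 CPM in the shYap libraries, against 2504, 2877, 2741 and 4676 CPM in the shCon libraries. The groups overlapped, and the median log2 fold change was 0.20 over the tested members and 0.03 over all genes. For no tested member did every shYap library lie above or below every shCon library, against 2.61% and 3.96% of all genes.

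Single members spread widely within shYap. Cyp4a31 had 1.82, 4.95, 12.9 and 31.7 CPM in the shYap libraries, against 3.51, 4.58, 4.63 and 3.34 CPM in the shCon libraries. Its 2 highest libraries were shYap replicates 4 and 3 and its lowest was shYap replicate 1, with a change of 1.67 ± 0.72 (SE, adjusted p = 0.453). Cyp4a14 had 30.4, 72.7, 113 and 131 CPM in the shYap libraries, against 66.2, 56.2, 55.8 and 21.6 CPM in the shCon libraries (0.79 ± 0.46 (SE, adjusted p = 0.604)), and Cyp4a10 24.7, 39.9, 46.4 and 75.3 CPM in the shYap libraries, against 45.2, 29.6, 37.4 and 17.1 CPM in the shCon libraries. All 4 PPARα targets had positive log2 fold changes, with a median of 0.68, and none passed. Cyp2a5 had 30.1, 31.3, 2.44 and 18.4 CPM in the shYap libraries, against 90.8, 56.8, 46.2 and 23.1 CPM in the shCon libraries, a change of -1.40 ± 0.67 (SE, adjusted p = 0.508), with shYap replicates 3 and 4 below every shCon library and replicates 1 and 2 between shCon replicates 3 and 4. Cyp2e1 had 1069.8, 1794, 262 and 1355 CPM in the shYap libraries, against 1002, 1169, 1169 and 1664 CPM in the shCon libraries, where shYap replicate 3 stood far below the other libraries. That library was also the lowest for Cyp1a2, with 51.7, 92.1, 7.66 and 45.5 CPM in the shYap libraries, against 77.03, 74.3, 61.6 and 96.6 CPM in the shCon libraries, and for Cyp2d9, with 163, 268, 59.4 and 279.8 CPM in the shYap libraries, against 139.5, 196, 192 and 356 CPM in the shCon libraries, although its Alb of 8278 CPM was above that of shCon replicate 1 (4304 CPM).

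**Figure D5:**
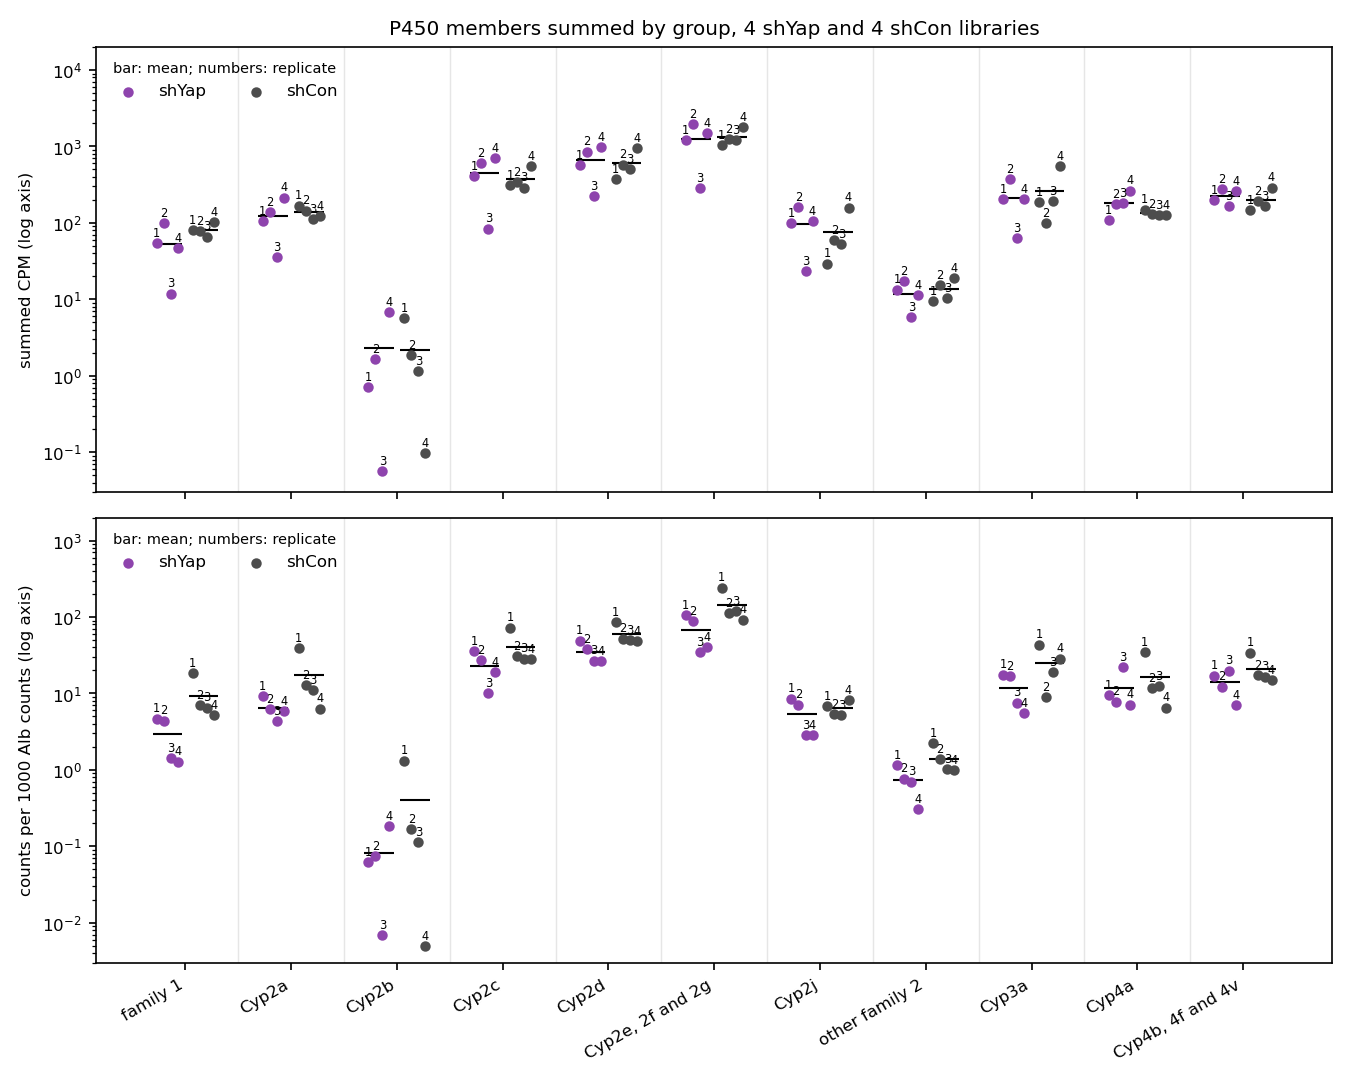
Summed CPM (upper row) and counts per 1000 Alb counts (lower row) of each member group in shYap (purple, left) and shCon (grey, right) libraries, on log axes, with replicate numbers and bars at the group means. The groups overlap in every panel except family 1 relative to Alb, where the shYap libraries (1.28 to 4.68) lie below the shCon libraries (5.22 to 18.6).

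Relative to Alb, which had 11512, 22334, 8278 and 36887 CPM in the shYap libraries, against 4304, 11118, 10124 and 19468 CPM in the shCon libraries, 0 of the 46 tested members were called at an adjusted p under 0.05, where 0.139% of all genes were lower and 0.0121% higher in edgeR. Those shares rest on single libraries: the 23 genes lower were 88 without shYap replicate 3, 83 without shCon replicate 4, and 0 without shCon replicate 3. The median was -0.66 over the members and -0.72 over all genes, so by the median the members did not stand apart. Family 1 had 4.68, 4.41, 1.43 and 1.28 counts per 1000 Alb counts in the shYap libraries, against 18.6, 7.01, 6.54 and 5.22 counts per 1000 Alb counts in the shCon libraries. The groups did not overlap, and most of these counts were from Cyp1a2, which had 4.49, 4.13, 0.925 and 1.23 counts per 1000 Alb counts in the shYap libraries, against 17.9, 6.69, 6.08 and 4.96 counts per 1000 Alb counts in the shCon libraries and a change of -1.72 ± 0.75 (SE, adjusted p = 0.639). Every shYap library lay below every shCon library for 4 of the 46 tested members (Cyp1a2, Cyp2c23, Cyp2d9 and Cyp4f15), against 1.65% of all genes. None lay above, against 0.0241% of all genes. Cyp2a5 had the smallest p on this scale, at -2.73 ± 0.78 (SE, adjusted p = 0.119), and Cyp2b9 was at -2.28 ± 0.82 (SE, adjusted p = 0.467). Cyp2a5 was called lower without shCon replicate 4 (adjusted p = 0.028). These values lean on Alb: with Apoa1 in its place the median of all genes was 0.53, and with Ttr 0.38.

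The sex-biased members took other levels here. The 9 female-biased members other than Cyp4a14 in this table summed to 2.18, 2.58, 0.397 and 7.23 CPM in the shYap libraries, against 6.41, 3.24, 1.85 and 0.823 CPM in the shCon libraries. With Cyp4a14 included, the sums were 32.5 to 138 CPM in shYap and 22.4 to 72.6 CPM in shCon libraries. Cyp3a41a, Cyp3a41b and Cyp3a44 had 0 to 3 counts over either group, and no fold is given for them. The 3 male-biased members summed to 212, 322, 68.4 and 299.99 CPM in the shYap libraries, against 173, 233, 218 and 437 CPM in the shCon libraries, with shYap replicate 3 the lowest. Xist was at 0 to 0.203 CPM in shYap and 0 to 0.1002 CPM in shCon libraries. In the composition by length-scaled counts, family 1 made up 1.64 ± 0.618% in shYap and 2.91 ± 0.492% in shCon libraries (SD, n = 4 each), without overlap, and Cyp2e, 2f and 2g 39.1 ± 6.89% in shYap and 44.9 ± 1.94% in shCon, with overlap. The genes listed as bile duct markers summed to 59.6 to 91.3 CPM in shYap and 48.1 to 54.9 CPM in shCon libraries, without overlap. Neither their cell of origin, bile duct or carcinoma, nor the part of this in the result for family 1 was tested.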

How the data were processed

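The libraries are bulk RNA-seq of mouse liver metastases (5 HFD, 5 LFD, 4 shYap, 4 shCon). The deposited values are the authors' estimated counts per gene, 1 table for the diet and 1 for the hairpin groups. The submitters' processing notes name STAR 2.7.3a, Partek, DESeq2, GRCm38 and mm10 without their roles. The annotation and the use of strand are not given in the sources used here. Of the values, 60.1% were whole in the diet and 62.5% in the hairpin table, and genes with a mean count under 1 are not in the diet table. The counts were rounded and fitted over all genes passing edgeR's filterByExpr, in each table alone, with the quasi-likelihood test and Benjamini-Hochberg adjustment (edgeR 4.0.16, limma 3.58.1, DESeq2 1.42.0, R 4.3.3). For values relative to Alb, the log count of Alb in each library was the offset in place of the TMM-scaled library size. Each SE was taken as the size of the log2 change over the root of its F statistic. The scripts were tested on simulated data.

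Coordinates matched GENCODE M21 for all 64 members. Sequences are RefSeq's, GRCm38.p6. Floors are 3 counts in each library of a group, and 95% intervals cover counting error only. Totals per library were 17207214 counts or more, so that 3 counts in a library are about 0.15 CPM. Members with values were chosen by a rule: the 3 with the highest mean CPM in each group, the 5 largest and 5 smallest changes relative to Alb among members with at least 100 counts, the sex-biased and receptor-target lists, and members at 0 in a group. Members, lists and rule were chosen with earlier results of these data known. Replicate numbers did not pair the libraries: the deviations of same-numbered libraries from their group means correlated at -0.53 to 0.34 in the diet and -0.10 to 0.24 in the hairpin table. The shYap columns are numbered 1, 2, 4 and 5 and the shCon columns 1 to 4, and the replicate numbers follow the sample titles. By column number, shYap replicate 3 and shCon replicate 4 correspond and correlated at -0.44.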

Additional observations from a re-analysis of the deposited data

Results flagged for a closer look

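A gap test on the highest and lowest library of each group of 4 or 5 marked 13 values as far from the others, a mark that chance gives to about 1 in 20 groups. In LFD, replicate 5 stood apart for Cyp2b10 with 13.0 CPM, above 0.681 to 3.71 CPM in the other 4, and replicate 1 for Cyp4a31 with 3.64 CPM. In shCon, replicate 1, the library with the least Alb, was highest relative to Alb for family 1 (18.6 counts per 1000 Alb counts), Cyp2b (1.33), Cyp2c (72.5), Cyp2d (86.6), Cyp4b, 4f and 4v (34.3) and all members together (582), and also for the summed CPM of Cyp4a (149 CPM). In shCon, replicate 4 stood apart for Cyp2c29 with 129.9 CPM, above 16.8 to 30 CPM in the other 3. In shYap, replicate 3 stood apart for Cyp4a relative to Alb (22.1 counts per 1000 Alb counts) and for Cyp4f17 (19.5 CPM), and replicate 4 for Cyp2a22 (2.88 CPM).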

How the results depend on the processing

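Numbers of members called kept within 1.5 times of those reported under the other tests, size factors, filters and reference genes, with these exceptions. In HFD against LFD, members higher numbered 0 to 1 when single libraries were left out (1, Cyp4f16, without LFD replicate 2), and members lower 40 to 54 over all alternatives, the 40 with HFD replicates 1 and 2 summed and 3 and 4 summed, which left 3 HFD samples. Relative to Alb, members lower numbered 16 to 23 and members higher 11 to 16. In shYap against shCon relative to Alb, members lower numbered 0 to 1 when single libraries were left out (1, Cyp2a5, without shCon replicate 4) and 3 in the fit with the replicate block (Cyp1a2, Cyp2a5 and Cyp2c23), where the block called 375 of all genes lower; the numbers do not pair the libraries, so this is no paired analysis by design. With the replicate block, 42 members were lower in HFD against LFD. With Apoa1 in place of Alb, the mean log2 differences of the summed groups between shYap and shCon were 0.11 for Cyp2c, 0.18 for Cyp2d and 0.0361 for all members, opposite in sign to -0.82, -0.76 and -0.89 with Alb, and -0.20 for Cyp2e, 2f and 2g, 0.52 for Cyp2j, -0.0743 for other family 2 and 0.35 for Cyp4b, 4f and 4v. The median of all genes moved from -0.72 to 0.53 with the same change. Values of single members that turned sign were never called. Cyp4a31 in HFD against LFD was -0.45 in limma voom, -0.37 with the block and -0.28 to 0.57 without single libraries. Relative to Ttr instead of Alb, Cyp2a12 was 0.59, Cyp2c23 0.22, Cyp2c38 0.029, Cyp2d26 0.49, Cyp2j5 0.37 and Cyp4f15 0.20. Relative to Apoa1, Cyp2j9 was -0.23 and Cyp4a12b -0.20, and relative to the hepatocyte list -0.0899 and -0.0646. Cyp2j9 was -0.52 with the block. In limma on the log2 ratio to Alb, Cyp2a12 was 0.00305, Cyp2j9 -0.15 and Cyp4a12a 0.59. Without single libraries, Cyp2a12 ranged over -0.15 to 0.12, Cyp2d26 over -0.15 to 0.000656, Cyp2j9 over -0.69 to 0.52 and Cyp4a12b over -0.32 to 0.47. The cause of these turns was not tested. Of the values of named members under alternatives, 806 kept their side in HFD against LFD, 20 lost and 12 gained a call; relative to Alb these were 776, 35 and 5. On the TMM scale the losses were in Cyp2d9, Cyp2d22, Cyp2j6, Cyp4a12a, Cyp4a12b, Cyp4a32 and Cyp4v3. Depth limits members with few counts: where a group has 3 counts or fewer, only a bound or a counting interval is given.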

Other observations

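Cytochromes outside families 1 to 4 were read beside the members. Cyp17a1, a steroid hydroxylase of family 17, was the 1 gene of the 8 in sterol and bile acid metabolism that was called in shYap against shCon relative to Alb, higher at 3.57 ± 0.83 (adjusted p = 0.0268). That call rests on single libraries. With shYap replicate 1 or 2, or shCon replicate 2 or 3, left out, 0 of all genes were called higher. Cyp7b1, an oxysterol hydroxylase known to be higher in male mouse liver, had 2.79, 4.04, 1.21, 2.11 and 2.25 CPM in the HFD libraries, against 261, 7.15, 61.4, 3.14 and 223 CPM in the LFD libraries. Its LFD replicates 2 and 4 were the lowest of that group, as they were for the sum of Cyp2d9, Cyp4a12a and Cyp4a12b.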
